A study of Mus musculus with 9 samples.

Results

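Families of transcription factors named for their DNA-binding domain, the Hox and other homeobox genes (such as Emx, Irx, Lhx and the sine oculis genes), the paired-box genes (Pax), the forkhead genes (Fox), the Sox, Gata, T-box (Tbx) and AP-2 (Tfap2) genes and the Hnf genes, were compared between kidney tumour areas and normal renal cortex. Members were every row of the gene count table whose mouse symbol begins with one of these family names followed by its number or letter, and no measured value entered the choice. There were 98 members among 14052 genes. The 5 tumour areas came from 1-year-old mice with floxed Vhl and Pbrm1 alleles (Vhl F/F; Pbrm1 F/F) and Ksp-Cre, in which the cadherin 16 promoter drives Cre recombinase in tubule epithelium, so other cells of a tumour area keep both genes. The 4 normal areas came from the cortex of wild-type mice of the same age, which carried neither floxed allele and no Cre. Tumour mice were of mixed C57BL/6, BALB/c and 129 background and normal mice were C57BL/6, so strain and genotype cannot be told apart. The sample names of each group share 1 number, so all areas of a group may come from 1 animal, in which case the tests measure variation among areas and not among mice.

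Many of these factors build and maintain the nephron. Pax2, Pax8, Lhx1 and Gata3 set up the nephric duct and the early kidney epithelium, and the Hnf4 nuclear receptors drive transporter genes of the proximal tubule. Hox genes lie in clusters in which gene order follows the body axis, and the kidney arises at the level of their more posterior members. Other members mark cells that are not tubule epithelium, such as Pax5 in B cells, Tbx21 in T helper 1 and cytotoxic cells, Foxp3 in regulatory T cells and Tbx18 in the mesenchyme around the mouse ureter. Vhl targets the hypoxia-inducible factors for destruction, and these bind a short core motif in promoters and enhancers of their target genes.

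The libraries held 5143527 to 8250261 counts, so that 3 counts, taken as the floor of detection, correspond to 0.409 to 0.648 CPM in a library, where CPM is a count relative to the scaled library total. Floors and counting intervals cover counting error only, and a bound set against 3 normal counts takes the tumour counts as exact. Vhl ranged from 45.1 to 75.6 CPM in tumour areas and from 97.6 to 108 CPM in normal areas, a log2 fold change of -0.79 ± 0.13 (SE, edgeR adjusted p = 0.000248). Pbrm1 ranged from 106 to 162 CPM in tumour areas and from 141 to 164 CPM in normal areas, and did not pass the test (log2 fold change -0.19, edgeR adjusted p = 0.142). Cdh16, the gene whose promoter drives the Cre, averaged 978 ± 130.2 CPM in tumour areas and 1146 ± 24.3 CPM in normal areas and was not called (edgeR adjusted p = 0.0543). Replicate areas correlated at 0.962 to 0.992 within the tumour group and at 0.994 to 0.995 within the normal group, and no pair agreed within sampling noise. Markers of T cells, B and plasma cells, urothelium and dividing cells rose in tumour areas (5 of 5, 3 of 3, 5 of 5 and 2 of 2 tested), and markers of proximal tubule, principal cells, intercalated cells and podocytes fell (5 of 5, 3 of 3, 2 of 2 and 3 of 3 tested). Macrophage markers rose in 1 of 2, fibroblast and smooth muscle markers rose in 3 and fell in 2 of 6, thick limb and distal tubule markers fell in 2 of 3, endothelium markers fell in 2 of 3, and the 1 fat marker tested was not called. Over all 7020 genes tested, 39.3% were called higher and 35.3% lower in tumour areas. The part of cell makeup in the results on single factors was not tested, and in bulk tissue fewer cells of a type and less RNA per cell cannot be told apart.

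Tumour areas carried less of the kidney factors Lhx1, Hnf4g and Tfap2b and of the Hoxd genes, and more of the lymphocyte factors Pax5 and Tbx21. Of the 98 members, 31 had no count in any library, 32 had counts too low to be tested, and 35 were tested with edgeR's quasi-likelihood test among 7020 genes. A gene was called at an adjusted p under 0.05. Of the 35 tested members, 28 were called (80.0%), against 74.6% of all genes tested. There were 11 members higher in tumour areas (31.4%, against 39.3% of all genes tested) and 17 lower (48.6%, against 35.3%). A change of at least 2-fold was called upward in 5 members (14.3%, against 17.3%) and downward in 8 (22.9%, against 12.6%). The tumour and normal areas did not overlap in 25 members (71.4%, against 67.8%), and all 25 were among those called. These shares were near those of the transcriptome at large, with more lower calls among the members than in the background. The split of calls depended on the scaling: with library size alone, which shifted the median of all genes by 0.29 on the log2 scale, 16 members were called higher (45.7%, against 53.2% of all genes tested) and 14 lower (40.0%, against 24.1%). The median log2 fold change of the tested members was -0.09, against 0.06 for all genes tested, and the median size of change without regard to sign was 0.84, against 0.59. Members also differed more among tumour areas, with a median SD of log2 CPM of 0.343, against 0.211 for all genes tested. Among normal areas the same SD was 0.102, against 0.096.

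**Figure D1:**
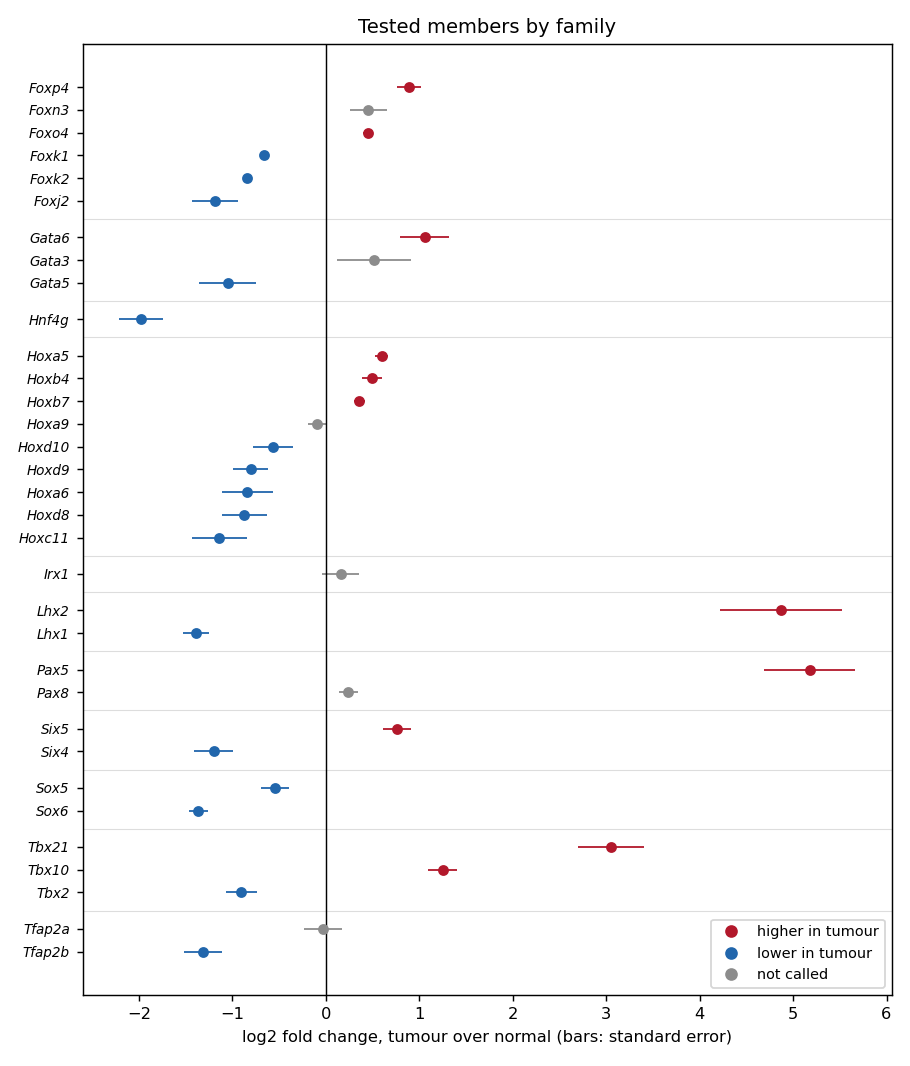
Log2 fold change, tumour over normal (x axis), of 33 tested members, grouped by family, with bars for the standard error. Red points were called higher in tumour areas (11), blue points lower (16) and grey points were not called (6). Pax5, Lhx2 and Tbx21 lie farthest to the right and Hnf4g farthest to the left.

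Promoters are shown for members whose values carry the results below: the neighbouring genes Hoxd10, Hoxd9 and Hoxd8, which fell together, the tubule factors Lhx1 and Tfap2b, which fell, and Pax5, which rose. The sequences run 5′ to 3′ on the gene's strand from 250 bases before to 50 bases after the start site, from RefSeq on GRCm38.p6. Positions are chr2:74691641-74691940 (plus strand) for Hoxd10, chr2:74697513-74697812 (plus) for Hoxd9, chr2:74704365-74704664 (plus) for Hoxd8, chr11:84525485-84525784 (minus) for Lhx1, chr1:19211804-19212103 (plus) for Tfap2b and chr4:44710645-44710944 (minus) for Pax5. Capitals mark the core motif of the hypoxia-inducible factors, ACGTG or GCGTG, on either strand.
Hoxd10: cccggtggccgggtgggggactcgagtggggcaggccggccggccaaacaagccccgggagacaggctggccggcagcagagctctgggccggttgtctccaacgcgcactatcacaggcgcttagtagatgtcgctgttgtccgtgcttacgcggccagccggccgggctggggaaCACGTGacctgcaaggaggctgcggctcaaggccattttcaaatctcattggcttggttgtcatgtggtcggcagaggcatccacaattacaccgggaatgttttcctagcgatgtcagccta
Hoxd9: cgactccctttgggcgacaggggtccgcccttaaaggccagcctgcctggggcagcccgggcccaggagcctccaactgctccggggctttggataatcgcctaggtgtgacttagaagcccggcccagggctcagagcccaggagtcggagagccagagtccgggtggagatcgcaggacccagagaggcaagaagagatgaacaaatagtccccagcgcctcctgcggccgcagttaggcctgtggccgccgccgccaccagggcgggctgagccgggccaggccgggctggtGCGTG
Hoxd8: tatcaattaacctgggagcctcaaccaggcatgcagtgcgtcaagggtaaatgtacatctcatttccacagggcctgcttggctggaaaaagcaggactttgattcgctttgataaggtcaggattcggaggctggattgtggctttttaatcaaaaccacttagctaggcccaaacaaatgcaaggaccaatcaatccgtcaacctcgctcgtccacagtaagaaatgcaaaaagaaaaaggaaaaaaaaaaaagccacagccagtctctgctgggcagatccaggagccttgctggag
Lhx1: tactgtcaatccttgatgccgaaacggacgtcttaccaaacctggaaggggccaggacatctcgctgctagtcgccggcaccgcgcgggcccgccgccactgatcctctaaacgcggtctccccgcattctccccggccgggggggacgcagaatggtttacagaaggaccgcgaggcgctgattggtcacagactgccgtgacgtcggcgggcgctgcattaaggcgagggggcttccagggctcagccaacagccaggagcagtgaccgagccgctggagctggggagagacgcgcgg
Tfap2b: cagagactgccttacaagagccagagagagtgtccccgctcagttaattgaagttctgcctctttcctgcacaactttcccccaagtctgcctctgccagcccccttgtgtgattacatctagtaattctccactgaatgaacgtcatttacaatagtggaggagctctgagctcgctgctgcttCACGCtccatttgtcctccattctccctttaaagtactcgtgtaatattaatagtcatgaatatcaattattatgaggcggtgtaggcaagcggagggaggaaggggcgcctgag
Pax5: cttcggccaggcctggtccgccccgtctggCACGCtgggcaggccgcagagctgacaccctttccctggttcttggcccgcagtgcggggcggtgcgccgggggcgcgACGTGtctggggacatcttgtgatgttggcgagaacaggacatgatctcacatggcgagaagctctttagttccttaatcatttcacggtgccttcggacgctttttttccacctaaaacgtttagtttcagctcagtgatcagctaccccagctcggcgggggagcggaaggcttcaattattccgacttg
Hoxd10 and Pax5 held 2 matches each, and those of Hoxd10 overlap, being the same letters read on both strands. Hoxd9 and Tfap2b held 1 match each, and Hoxd8 and Lhx1 held none. Over all 32851 promoters of this length, 14380 (43.8%) held a match, and so did 15 of 33 promoters (45.5%) of the 25 tested members found in the table. A match was present in 5 of 9 promoters (55.6%) of members called higher and in 10 of 18 (55.6%) of members called lower, and in 0 of 6 of members not called. Foxk1, Foxo4, Gata6, Hnf4g, Hoxb7, Hoxc11, Irx1 and Tbx2 were among those not matched. A match describes letters in a window and is not a bound site.

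Lhx1, Hnf4g, Tfap2b, Sox6, Six4 and Tbx2 were lower in every tumour area than in every normal area, whereas Pax8 overlapped between the groups. In what follows values are CPM in tumour areas L4, R2, R3, R4 and R5 and then in normal areas L1, L2, R1 and R2. Means are ± SD over 5 tumour and 4 normal areas, and log2 fold changes ± SE.

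Lhx1 (ENSMUSG00000018698), a LIM homeobox factor of the nephric duct and the early nephron, had 24.1, 24.97, 37.7, 36.4 and 32.5 CPM in tumour areas, against 88.4, 84.2, 78.6 and 75.2 CPM in normal areas. No tumour area came near the normal range. Lhx1 averaged 31.1 ± 6.35 CPM in tumour areas and 81.6 ± 5.84 CPM in normal areas, a log2 fold change of -1.39 ± 0.14 (edgeR adjusted p = 7.16e-06). Its relative Lhx2 (ENSMUSG00000000247), known from forebrain and hair follicle development, went the other way, with 2.92, 4.69, 2.36, 3.48 and 2.28 CPM in tumour areas, against 0.432, 0, 0 and 0 CPM in normal areas. Every tumour area held Lhx2 reads and only normal area L1 did among the controls, with 2 counts. From counts and scaled library totals pooled over each group, the tumour to normal ratio of Lhx2 was 36.0, with a 95% counting interval of 9.72 to 302; without normal L1 it was at least 19.2 against 3 counts over the remaining normal libraries. The call had an edgeR adjusted p of 6.28e-05.

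Hnf4g (ENSMUSG00000017688), a nuclear receptor of gut and kidney epithelium, had 1.53, 1.34, 3.08, 2.18 and 1.67 CPM in tumour areas, against 9.29, 7.90, 6.80 and 6.87 CPM in normal areas. This was the largest downward fold among the tested members, -1.98 ± 0.23 on the log2 scale (edgeR adjusted p = 2.38e-05), from groups that did not overlap. Its paralogue Hnf4a was not analysed here.

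Tfap2b (ENSMUSG00000025927), an AP-2 factor needed in the mouse distal nephron, had 39.6, 33.2, 76.9, 58.6 and 63.7 CPM in tumour areas, against 131, 141, 135 and 135 CPM in normal areas. Tumour areas L4 and R2 were lowest, and no tumour area reached the normal range. Tfap2b averaged 54.4 ± 17.9 CPM in tumour areas and 135 ± 4.11 CPM in normal areas, a log2 fold change of -1.32 ± 0.20 (edgeR adjusted p = 0.000175). Tfap2a (ENSMUSG00000021359), the AP-2 factor of neural crest and epidermis, had 16.4, 8.38, 19.4, 16.1 and 17.5 CPM in tumour areas, against 16.2, 17.2, 15.4 and 14.8 CPM in normal areas. Area R2 alone stood below the normal range, and Tfap2a was not called (log2 fold change -0.03 ± 0.20, edgeR adjusted p = 0.892). Thick limb and distal tubule markers, whose summed level ran from 1330 to 5806 CPM in tumour areas against 6407 to 7247 CPM in normal areas, were lowest in the same areas R2 and L4 as Tfap2b. Most of each sum was Umod, which was not called (edgeR adjusted p = 0.0584). Umod had 5300 CPM in tumour R3, inside its normal range of 5056 to 5983 CPM.

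Sox6 (ENSMUSG00000051910), a SoxD factor best known from cartilage and red cell development, had 55.2, 57.3, 69.8, 79.05 and 64.3 CPM in tumour areas, against 154, 173, 161 and 182 CPM in normal areas. The tumour areas kept a narrow range well below the normal one. Sox6 averaged 65.1 ± 9.69 CPM in tumour areas and 167 ± 12.05 CPM in normal areas, a log2 fold change of -1.36 ± 0.10 (edgeR adjusted p = 1.1e-06). Its partner in cartilage, Sox5 (ENSMUSG00000041540), fell less, with 9.97 to 14.4 CPM in tumour areas against 15.1 to 21.3 CPM in normal areas and a log2 fold change of -0.54 ± 0.15 (edgeR adjusted p = 0.0078). The Sox5 call was lost with library size alone as the scaling (adjusted p = 0.211). Sox9 and Sox4 were not analysed here.

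Six4 (ENSMUSG00000034460), a sine oculis homeobox factor of muscle and kidney development, had 6.95, 3.86, 8.34, 8.85 and 5.93 CPM in tumour areas, against 13.2, 15.9, 17.6 and 15.6 CPM in normal areas. Area R2 was lowest, and the groups did not overlap (log2 fold change -1.20 ± 0.21, edgeR adjusted p = 0.000421). Six5 (ENSMUSG00000040841), which lies beside Dmpk, the gene of human myotonic dystrophy, rose, with 34.6, 21.8, 25.6, 21.3 and 29.2 CPM in tumour areas against 15.8, 16.8, 15.3 and 14.6 CPM in normal areas. Every tumour area of Six5 exceeded every normal area (log2 fold change 0.76 ± 0.15, edgeR adjusted p = 0.000994). Tbx2 (ENSMUSG00000000093), a T-box repressor active in many developing organs, had 123, 58.8, 87.8, 81.5 and 102 CPM in tumour areas, against 160.4, 164, 169 and 186 CPM in normal areas. R2 was again the lowest tumour area, L4 was the highest, and none reached the normal range (log2 fold change -0.90 ± 0.17, edgeR adjusted p = 0.000645).

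Pax8 (ENSMUSG00000026976), the paired-box factor that marks kidney tubule and thyroid cells, had 249.6, 379, 309, 325 and 280.3 CPM in tumour areas, against 253, 264, 259.8 and 267 CPM in normal areas. All tumour areas other than L4 lay above the normal range, and L4 lay just below it. Pax8 averaged 309 ± 48.97 CPM in tumour areas and 261 ± 5.73 CPM in normal areas, and missed the threshold (log2 fold change 0.24 ± 0.10, edgeR adjusted p = 0.0551). Without tumour L4 its log2 fold change was 0.31 with an adjusted p of 0.00509, and without tumour R5 it was 0.28 with an adjusted p of 0.0471. Pax2, which shares early kidney functions with Pax8, had 41 counts in each group and was not tested. Scaled for library size, Pax2 averaged 1.29 ± 0.78 CPM in tumour areas and 1.75 ± 0.30 CPM in normal areas, with tumour R2 lowest at 0.168 CPM. Irx1 (ENSMUSG00000060969), an Iroquois factor of the developing nephron, had 21.7, 31.01, 45.5, 31.9 and 26.6 CPM in tumour areas, against 32.8, 30.5, 24.4 and 24.3 CPM in normal areas. The Irx1 groups overlapped, and the log2 fold change was 0.16 ± 0.20 (edgeR adjusted p = 0.483).

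**Figure D2:**
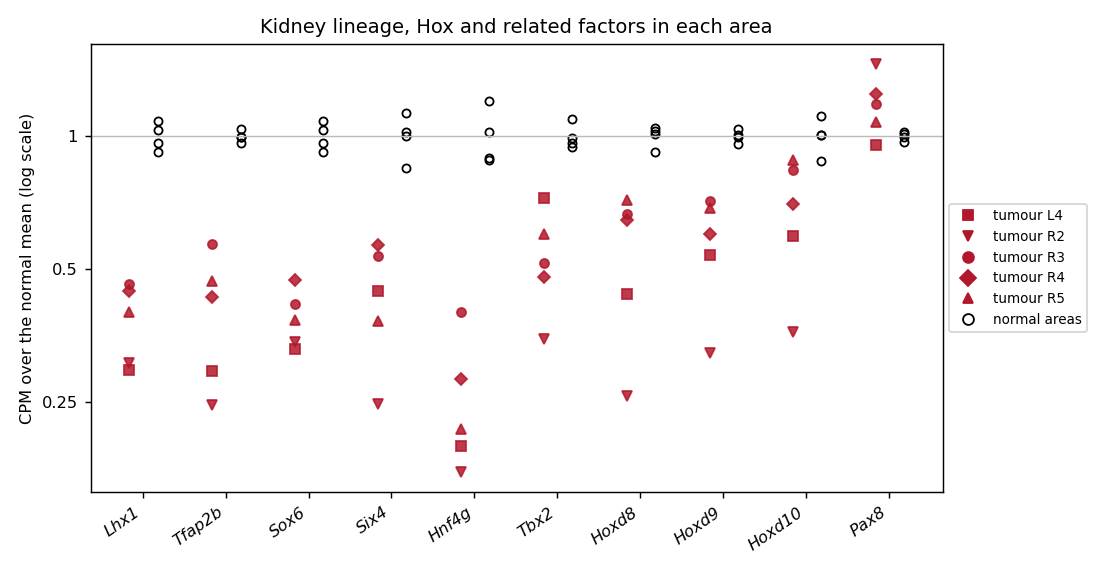
CPM of 10 kidney lineage, Hox and related factors in each area, divided by the mean of the 4 normal areas (y axis, log scale); red symbols are the 5 tumour areas and open circles the normal areas. From Lhx1 to Hoxd9 every tumour area lies below every normal area, while Hoxd10 and Pax8 overlap. Tumour area R2 is the lowest point for Tfap2b, Six4, Hnf4g, Tbx2 and the 3 Hoxd genes.

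Hox genes differed in direction between and within clusters. Of 23 Hox members, 9 had no count, 5 had counts too low to be tested and 9 were tested, of which 3 rose, 5 fell and 1 was not called. All 3 tested Hoxd genes fell, both tested Hoxb genes rose, the 1 tested Hoxc gene fell, and the 3 tested Hoxa genes gave 1 higher, 1 lower and 1 not called. With so few genes in a cluster these counts are a description. Hox transcripts overlap antisense genes in these clusters, and the library kit named in the labels does not mark strand, so sense and antisense reads cannot be told apart.

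Hoxd8 (ENSMUSG00000027102) had 119, 69.9, 181, 175 and 195 CPM in tumour areas, against 283, 249.7, 275 and 278 CPM in normal areas. Its neighbour Hoxd9 (ENSMUSG00000043342) had 86.5, 51.8, 114, 96.3 and 110.2 CPM in tumour areas, against 160.1, 154, 167 and 161 CPM in normal areas. Hoxd10 (ENSMUSG00000050368), next in the cluster, had 28.2, 17.1, 39.9, 33.4 and 41.95 CPM in tumour areas, against 41.7, 47.7, 52.8 and 47.7 CPM in normal areas. In all 3 genes area R2 was lowest and L4 next, and Hoxd10 in R5 reached just above the lowest normal area. The log2 fold changes were -0.87 ± 0.24 for Hoxd8 (edgeR adjusted p = 0.00766), -0.81 ± 0.18 for Hoxd9 (edgeR adjusted p = 0.00231) and -0.57 ± 0.22 for Hoxd10 (edgeR adjusted p = 0.0348). Without tumour R2 they were -0.69, -0.66 and -0.41. The Hoxd10 call was lost without normal L2 (adjusted p = 0.0683), R1 (0.0892) or R2 (0.0675), with upper-quartile scaling (0.0512) and with library size alone (0.24). Hoxd11, Hoxd12 and Hoxd13 had no count in any library.

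Principal cell markers (3 of 3 tested fell) summed to 34.5 CPM in tumour area R2 and between 151 and 175 CPM in tumour areas L4, R3, R4 and R5, against 551 to 586 CPM in normal areas. Aqp3 made up 112 CPM of the L4 sum, against 40.6 to 46.5 CPM in R3, R4 and R5. Aqp2 and Scnn1g were lowest in R2 and next lowest in L4, with 31.6 and 31.4 CPM in L4. In R3, R4 and R5 Aqp2 had 69.8 to 89.4 CPM and Scnn1g 39.5 to 43.7 CPM. Intercalated cell markers (2 of 2 tested fell) summed to 13.2 CPM in R2 and ranged from 34.5 to 73.4 CPM in the remaining 4, against 206 to 229.9 CPM in normal areas. Over all 35 tested members R2 was the lowest tumour area for 11 (31.4%), against 19.4% of all genes tested. These 11 were Foxk2, Gata3, Hnf4g, Hoxb4, Hoxd8, Hoxd9, Hoxd10, Six4, Tbx2, Tfap2a and Tfap2b. The part of the collecting duct markers in the low R2 values was not tested.

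Hoxa5 (ENSMUSG00000038253), a gene of the anterior part of its cluster known from lung development, had 68.3, 73.9, 78.2, 70.8 and 71.1 CPM in tumour areas, against 52.1, 45.4, 44.96 and 49.1 CPM in normal areas. The tumour areas lay close together and above every normal area (log2 fold change 0.60 ± 0.07, edgeR adjusted p = 1.93e-05). Hoxb4 (ENSMUSG00000038692), a factor of blood stem cell expansion, had 63.1, 45.6, 55.7, 47.7 and 58.1 CPM in tumour areas, against 39.8, 35.6, 39.5 and 38.6 CPM in normal areas. Hoxb7 (ENSMUSG00000038721), whose promoter is widely used to mark the mouse ureteric bud, had 92.6, 88.3, 102, 88.5 and 86.6 CPM in tumour areas, against 70.02, 71.7, 73.2 and 71.2 CPM in normal areas. Neither Hoxb gene overlapped between the groups, and their log2 fold changes were 0.50 ± 0.10 (edgeR adjusted p = 0.00135) for Hoxb4 and 0.36 ± 0.06 (edgeR adjusted p = 0.00029) for Hoxb7.

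Hoxa9 (ENSMUSG00000038227), a posterior gene known from leukaemia, was not called, with 77.2 to 110.1 CPM in tumour areas against 98.8 to 108 CPM in normal areas (log2 fold change -0.09 ± 0.09, edgeR adjusted p = 0.372). Hoxa6 (ENSMUSG00000043219) was called lower at low levels, with 1.81, 3.18, 2.54, 2.76 and 2.28 CPM in tumour areas against 5.40, 4.90, 5.31 and 2.22 CPM in normal areas. Its groups overlapped through normal R2, and the call (log2 fold change -0.84 ± 0.27, edgeR adjusted p = 0.0163) was lost without normal R1 (adjusted p = 0.0517), without tumour L4 and R5 together (0.0662) and with library size alone (0.0816). Hoxc11 (ENSMUSG00000001656), a posterior gene, had 1.95, 1.01, 0.907, 1.31 and 1.82 CPM in tumour areas, against 2.16, 4.36, 3.15 and 2.63 CPM in normal areas. Every tumour area was below every normal area (log2 fold change -1.14 ± 0.29, edgeR adjusted p = 0.005).

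**Figure D3:**
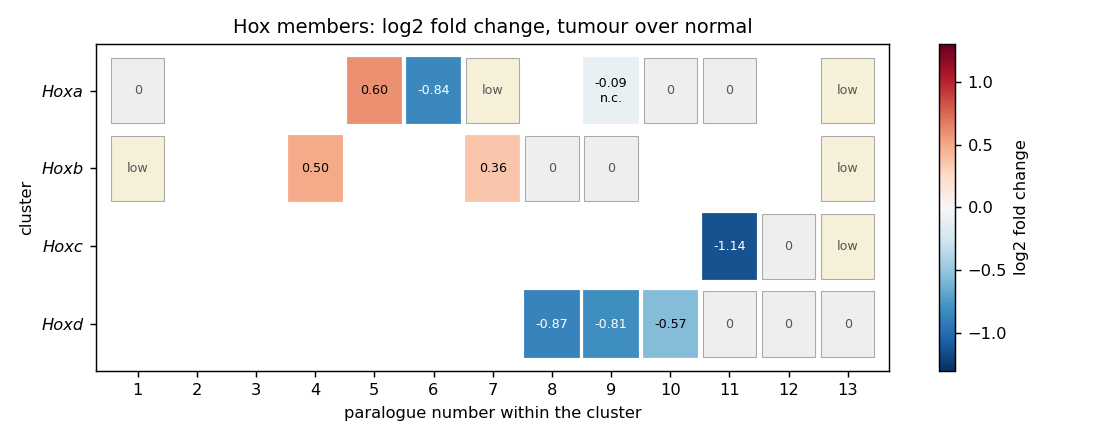
The 23 Hox members by cluster (y axis) and paralogue number (x axis), coloured and labelled by log2 fold change, tumour over normal; n.c. marks a tested gene that was not called, a grey box with 0 a gene with no count in any library, low a gene with too few counts to be tested, and a blank position no member. The 3 tested Hoxd genes are blue (-0.87, -0.81 and -0.57) and both tested Hoxb genes red (0.50 and 0.36).

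Forkhead factors were the second largest family, with 16 members, of which 1 had no count, 9 were too low to be tested and 6 were tested. Among those, 2 rose, 3 fell and 1 was not called. Foxk1 (ENSMUSG00000056493) and Foxk2 (ENSMUSG00000039275), paralogues that act in autophagy and glucose metabolism, fell together and by a narrow margin of error. Foxk1 had 150.3, 139, 142, 149.7 and 137 CPM in tumour areas, against 226, 229.5, 223 and 229 CPM in normal areas. Foxk2 had 147, 137, 140.0, 138 and 139 CPM in tumour areas, against 259, 250.1, 244 and 249 CPM in normal areas. The 5 tumour areas were nearly level for both genes and lay far below the normal ones. Their log2 fold changes were -0.66 ± 0.05 for Foxk1 (edgeR adjusted p = 6.25e-07) and -0.84 ± 0.04 for Foxk2 (edgeR adjusted p = 1.24e-07), the smallest standard errors beside that of Foxo4 among the tested members.

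Foxj2 (ENSMUSG00000003154), a broadly present forkhead factor, had 1.53, 2.35, 3.08, 2.03 and 1.52 CPM in tumour areas, against 3.24, 5.04, 5.31 and 5.26 CPM in normal areas. Tumour R3 came close to normal L1 without overlap (log2 fold change -1.19 ± 0.25, edgeR adjusted p = 0.00132). Foxo4 (ENSMUSG00000042903), a FOXO factor that insulin and growth factor signals keep out of the nucleus, rose, with 139, 153, 151, 139 and 136 CPM in tumour areas against 102, 107, 109 and 101 CPM in normal areas. Foxp4 (ENSMUSG00000023991), a repressor of the FOXP group, had 29.9, 30.5, 26.8, 22.2 and 31.01 CPM in tumour areas, against 14.5, 17.7, 13.3 and 14.8 CPM in normal areas. Neither gene overlapped between groups, with log2 fold changes of 0.45 ± 0.05 for Foxo4 (edgeR adjusted p = 2.36e-05) and 0.89 ± 0.13 for Foxp4 (edgeR adjusted p = 0.00011). Foxn3 (ENSMUSG00000033713), a repressor in the cell cycle checkpoint, had 3.08 to 4.45 CPM in tumour areas against 1.91 to 3.24 CPM in normal areas, and was not called (log2 fold change 0.46 ± 0.20, edgeR adjusted p = 0.0614). Foxi1, the master factor of intercalated cells, and Foxo1 were not analysed here.

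Factors of lymphocytes rose in tumour areas. Pax5 (ENSMUSG00000014030), the paired-box factor of B cell commitment, had 36.7, 29.8, 10.9, 19.6 and 31.3 CPM in tumour areas, against 0.864, 1.09, 0.498 and 0.202 CPM in normal areas. Tumour L4 and R5 were highest and R3 lowest, and all stood far above the normal areas. Pax5 averaged 25.7 ± 10.3 CPM in tumour areas and 0.664 ± 0.393 CPM in normal areas, a log2 fold change of 5.18 ± 0.49 (edgeR adjusted p = 5.27e-06). B and plasma cell markers (4 of 5 fixed genes in the table, none at 0 in every library) summed to 308 to 836 CPM in tumour areas against 2.83 to 5.19 CPM in normal areas, and put the 5 tumour areas in the same order as Pax5: L4, R5, R2, R4, R3.

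Tbx21 (ENSMUSG00000001444), the T-box factor of T helper 1 and cytotoxic cells, had 22.4, 16.6, 9.97, 12.04 and 19.9 CPM in tumour areas, against 3.46, 1.63, 1.82 and 1.01 CPM in normal areas. Each tumour area exceeded each normal area, and L4 and R5 were again highest. Tbx21 averaged 16.2 ± 5.20 CPM in tumour areas and 1.98 ± 1.04 CPM in normal areas, a log2 fold change of 3.05 ± 0.35 (edgeR adjusted p = 2.08e-05). T cell markers (6 of 7 in the table, none at 0 in every library) summed to 137 to 328 CPM in tumour areas against 6.97 to 11.7 CPM in normal areas, and ordered the tumour areas as Tbx21 did: L4, R5, R2, R4, R3. Foxp3, the factor of regulatory T cells, had 11 counts in tumour areas, with none in L4, and none in normal areas. Set against 3 counts over the 4 normal libraries together, it was at least 2.62-fold higher, with the 11 tumour counts taken as exact. Without normal L2 that bound was 1.78-fold.

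Gata factors differed in direction. Gata6 (ENSMUSG00000005836), a factor of endoderm, heart and vascular smooth muscle, had 28.6, 16.9, 13.2, 11.2 and 17.6 CPM in tumour areas, against 9.51, 7.63, 7.47 and 9.30 CPM in normal areas. All tumour areas were above the normal areas, with L4 highest (log2 fold change 1.06 ± 0.26, edgeR adjusted p = 0.00393). The Gata6 log2 fold change was 0.71 without tumour L4 and R5, and the call held there. Gata5 (ENSMUSG00000015627), a relative of Gata6 in heart and endoderm, had 3.62, 1.68, 2.18, 2.90 and 1.67 CPM in tumour areas, against 6.48, 5.72, 5.31 and 2.63 CPM in normal areas. It was called lower (log2 fold change -1.05 ± 0.31, edgeR adjusted p = 0.00978), although normal R2 lay inside the tumour range.

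Gata3 (ENSMUSG00000015619), a factor of the nephric duct, the collecting system, the urothelium and T helper 2 cells, had 167, 31.7, 62.7, 50.5 and 76.6 CPM in tumour areas, against 52.3, 55.2, 54.6 and 55.8 CPM in normal areas. Normal areas were nearly level, whereas tumour areas ran from R2 below them to L4 far above. The highest tumour area had 5.26 times the lowest, the widest ratio among tested members, against 1.07 among normal areas. Gata3 was not called (log2 fold change 0.52 ± 0.39, edgeR adjusted p = 0.252), and the log2 fold change was 0.02 without tumour L4 and -0.18 without L4 and R5. Urothelium markers summed to 1096 CPM in L4, 197 CPM in R5 and 16.7 to 61.7 CPM in R2, R3 and R4, against 0.83 to 5.18 CPM in normal areas, and principal cell markers were lowest in R2 as given above.

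Tbx10 (ENSMUSG00000037477), a little-studied T-box factor, had 13.6, 17.8, 15.6, 17.99 and 17.8 CPM in tumour areas, against 6.70, 5.45, 8.79 and 6.87 CPM in normal areas. The tumour areas lay close together and above all normal areas (log2 fold change 1.25 ± 0.16, edgeR adjusted p = 3.97e-05). Unlike Tbx21, it was lowest in L4, the area richest in lymphocyte markers.

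Tbx18 and 5 further members described next, chosen after their values were seen, were highest in tumour area L4. Tbx18, the factor of ureteric mesenchyme, had 16.4, 1.68, 0.907, 0.58 and 4.86 CPM in tumour areas, against 0.216, 0.136, 0 and 0.202 CPM in normal areas. It was not tested because too few libraries held enough counts, and its 169 tumour and 3 normal counts gave a ratio of 40.2 with a 95% counting interval of 13.5 to 197. Area L4 held 118 of the tumour counts, and without it the ratio was 15.6 (5.05 to 78.3). All tumour areas were above all normal areas, with L4 far ahead of R5 and R5 ahead of the rest. Pax1, a factor of sclerotome and thymus, had 3.62, 0.335, 0, 0.145 and 0.304 CPM in tumour areas and no count in normal areas, at least 7.37-fold higher when 3 counts are taken as the limit for the 4 normal libraries together. Outside L4 every Pax1 value lay below the floor of its library, and without L4 the bound was 1.53-fold.

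Tbx1, a factor of pharyngeal and muscle development, had 5.14, 0.503, 0, 0.435 and 1.52 CPM in tumour areas, against 0.432, 0.272, 0 and 0.202 CPM in normal areas. Foxf1, a factor of gut and lung mesenchyme, had 5.14, 2.18, 1.09, 1.16 and 0.912 CPM in tumour areas, against 1.08, 0.272, 0.83 and 0.202 CPM in normal areas. Sox15, a factor of muscle precursors, had 3.75, 1.01, 0.181, 1.02 and 1.06 CPM in tumour areas, against 0.216, 0.136, 0.166 and 0.202 CPM in normal areas. L4 was the highest area for each of the 3. Tbx1 and Foxf1 overlapped between the groups, and Sox15 did so in R3 alone, with tumour R2, R4 and R5 above every normal area. Foxn1, a factor of thymus epithelium and hair, had 40 counts in tumour areas, with its highest CPM in L4, and 3 in normal areas. The ratio was 9.52 with a 95% counting interval of 3.03 to 48.1. Without tumour L4 it was 7.35 (2.23 to 38.2). With 1 normal area left out it ran from 6.47 (2.06 to 32.7) without L2 to 21.0 (3.57 to 852) without R1.

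Of the 11 untested members with at least 20 tumour counts, L4 was the highest tumour area for 7 (63.6%), against 36.7% of the 750 such untested genes in the table. Among tested members the share was 12 of 35 (34.3%), against 31.6% of all genes tested. Beside these, fibroblast and smooth muscle markers summed to 2751 CPM in L4, 1734 CPM in R5 and 815 to 1097 CPM in R2, R3 and R4, against 239.8 to 270.8 CPM in normal areas. Most of the L4 sum was Col1a1, Dcn and Acta2 (968, 1024 and 668 CPM), which rose. Pdgfra (3.81 to 5.36 CPM in tumour and 12.3 to 16.8 CPM in normal areas) fell without overlap. So did Pdgfrb (8.52 to 16.1 CPM in tumour and 17.2 to 21.0 CPM in normal areas), and Myh11 was not called. Fat markers summed to 144 CPM in L4, 31.8 CPM in R5 and 0.335 to 3.34 CPM in R2, R3 and R4, against 1.62 to 6.40 CPM in normal areas. The part of these cells in the L4 values was not tested. Without tumour L4 and R5, an alternative chosen after seeing the data, 13 members were called higher (37.1%, against 38.8% of all genes tested) and 16 lower (45.7%, against 36.0%).

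**Figure D4:**
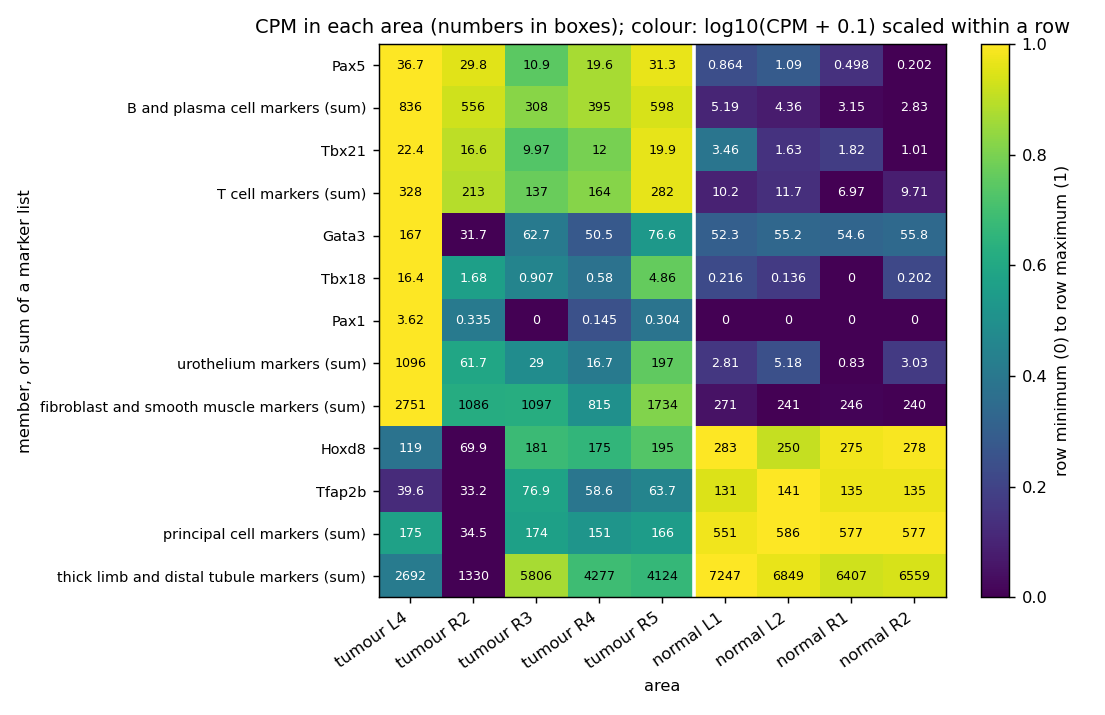
CPM of 7 members and summed CPM of 6 marker lists (rows) in the 5 tumour areas, left of the white line, and the 4 normal areas, right of it; the numbers in the boxes are CPM and the colour is log10(CPM + 0.1) scaled from the lowest to the highest area of a row. Pax5 and Tbx21 follow the order of the lymphocyte markers among tumour areas, Tbx18 and Pax1 are highest in L4, and Hoxd8 and Tfap2b are lowest in R2.

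A total of 31 members (31.6%) had no count in any library, against 28.4% of all genes. Among them were Emx1 and Emx2, Hoxa10, Hoxa11 and Hoxd11, Irx2 and Irx3, Six2 and Foxm1. Emx2, Hoxa11, Hoxd11 and Six2 act in early kidney development, and Irx2 and Irx3 in the nephron. Absence of counts here is no evidence of silence. Of 24 members with 1 annotated transcript in GENCODE M21, 4 were at 0, and of 74 members with more transcripts, 27 were. Foxm1, the forkhead factor of mitotic genes, was at 0 in all 9 libraries while Mki67, a marker of dividing cells, averaged 53.6 ± 10.7 CPM in tumour areas and 3.36 ± 1.04 CPM in normal areas (edgeR log2 fold change 3.99).

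All 6 tested genes known to depend on FOXI1 fell, with a median log2 fold change of -1.96 against 0.06 over all genes tested, among them the anion exchangers Slc26a4 (-2.61) and Slc4a9 (-2.21) and the proton pump subunit Atp6v0d2 (-2.06). Of all genes tested, 35.3% were called lower. Several genes of the FOXI1 list are also the markers of intercalated cells used above, so the counts are not separate from those.

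Genes known to depend on FOXO factors were mixed, with 5 of 14 tested higher and 7 lower and a median of -0.27. Among all genes tested, 39.3% were called higher and 35.3% lower. The repressor Bcl6 (2.73), the death gene Bcl2l11 (1.25) and the stress gene Gadd45a (0.81) rose, and the insulin receptor substrate Irs2 (-1.57), the sestrin Sesn3 (-1.36) and the mitochondrial dismutase Sod2 (-1.22) fell. All 6 tested genes that depend on FOXM1 rose, with a median of 2.48, led by the mitotic kinases Aurkb (3.74) and Plk1 (3.06) and the cyclin Ccnb2 (2.80). The list had 10 genes in the table, and those not tested included Ccnb1 and Aurka with 1 count each. The dividing cell markers Mki67 (3.99) and Bub1 (3.99) rose as well, and the part of dividing cells in this list was not tested.

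Of 31 genes listed as cofactors of Hox, sine oculis, Lhx and Gata proteins, 26 were in the table, 11 were at 0 and 10 were tested, of which 3 rose and 2 fell (median 0.17). For all genes tested the shares were 39.3% higher and 35.3% lower. Pbx2, a Hox partner, rose (log2 fold change 0.65, edgeR adjusted p = 2.38e-05). Ssbp3 (0.70) and Ssbp4 (0.85), which stabilise the Lhx cofactor complex, rose. Dach1, a partner of the Eya coactivators, fell (-1.18, edgeR adjusted p = 7.68e-06), as did the Groucho corepressor Tle4 (-1.28, edgeR adjusted p = 0.000249). Of 6 other kidney epithelial regulators tested, the ETS factors Elf3 (1.93) and Ehf (0.53) and the zinc finger factor Sall1 (0.41) rose, and the bile acid receptor gene Nr1h4 fell (-1.56). The groups overlapped for Ehf (edgeR adjusted p = 0.0478) and Sall1 (edgeR adjusted p = 0.00645), and not for Elf3 or Nr1h4.

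**Figure D5:**
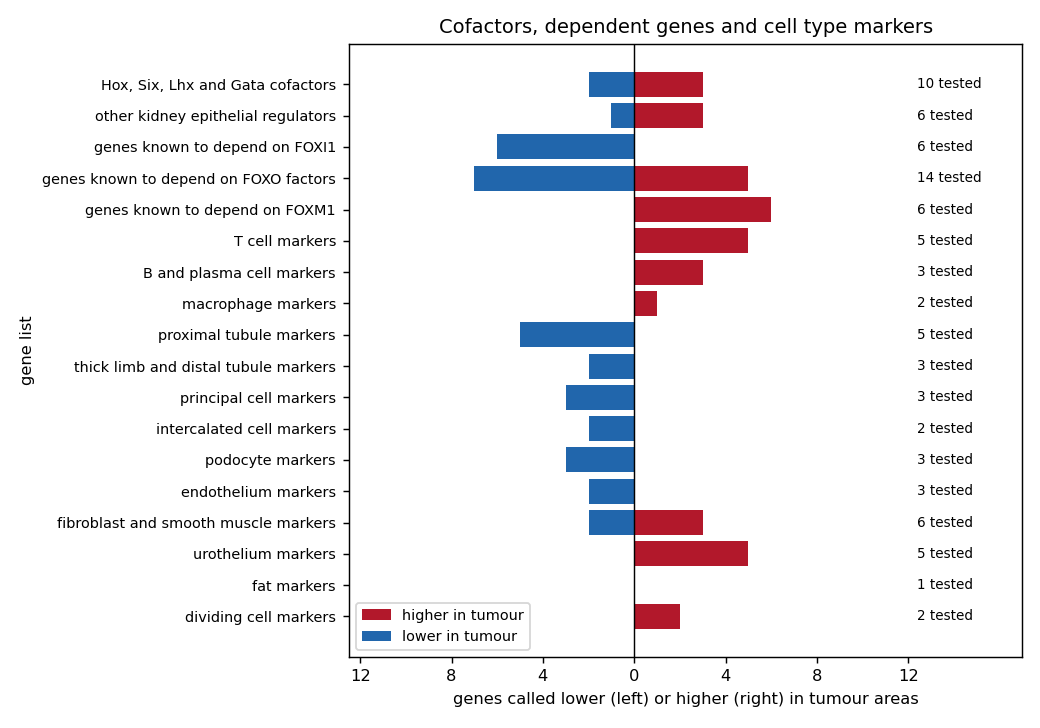
Number of genes of each list called lower (blue, left of the line) or higher (red, right of the line) in tumour areas, with the number tested at the right. All 6 tested FOXM1-dependent genes and all 5 tested T cell markers are on the right, and all 6 tested FOXI1-dependent genes on the left.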

How the data were processed

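Polyadenylated RNA was sequenced as 50-base paired reads after TruSeq RNA preparation, per the labels' protocols. The authors deposited raw gene counts for the 9 areas. STAR 2.3, HTSeq, edgeR and the mm9 build are named in the submitters' processing notes, with no role, order or counting option given in the sources used. All 14052 genes entered 1 fit with edgeR 4.0.16 (R 4.3.3): filterByExpr (minimum count 10, minimum total 15), TMM factors (1.04 to 1.17 in tumour and 0.89 to 0.90 in normal libraries), the quasi-likelihood test and Benjamini-Hochberg adjustment over 7020 genes. The biological coefficient of variation common to all genes was 0.152. Printed CPM values use TMM-scaled library sizes, and levels are not set against those of other genes. Alternatives used DESeq2 1.42.0, limma 3.58.1, other scalings and filters, the letter of the area name (L or R) as a covariate, and each library left out. Tests were checked on simulated counts in which a small part of the genes changed and both groups had the same coefficient of variation, 0.152. That check does not cover data in which 74.6% of genes are called and tumour areas vary more than normal areas. Members were found by the symbol rule alone, and the lists were chosen with earlier results of these data known. Full values per area are given for members called with at least 2-fold change and a mean of at least 1 CPM, and for members that their family's account turns on, except that some genes and a list that needs them are counted but not reported here. Tbx18, Pax1, Tbx1, Foxf1, Foxn1 and Sox15 were named after their values were seen. Ensembl gene IDs were matched to symbols through the reference gene table for 14026 genes, and 26 had none.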

Additional observations from a re-analysis of the deposited data

Results flagged for a closer look

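A single area far from the others of its group was looked for in the 89 groups of areas, over 45 members with at least 20 counts, in which the values differed. Chance marks about 1 in 20 groups, and 6 were marked. Tumour area L4 stood apart upward for Tbx18 at 16.4 CPM (0.58 to 4.86 CPM in the other tumour areas), for Sox15 at 3.75 CPM (0.181 to 1.06 CPM) and for Pax1 at 3.62 CPM (0 to 0.335 CPM). Among normal areas, L1 was marked for Lhx2 at 0.432 CPM, which is 2 counts and below the L1 floor of 0.648 CPM. The other normal areas held no Lhx2 count, so this mark was fixed by the zeros and the rate of 1 in 20 does not apply to it. Normal L1 was low for Foxj2 at 3.24 CPM (5.04 to 5.31 CPM in the other normal areas), and normal R2 was low for Hoxa6 at 2.22 CPM (4.90 to 5.40 CPM).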

How the results depend on the processing

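Of the 28 called members, 25 kept direction and call under all 18 alternatives run. The 3 exceptions were Hoxa6, Hoxd10 and Sox5, whose values are given above; the cause was not tested. Without a filter on low counts, 18 members were higher and 12 of them by at least 2-fold, and with 1 CPM required in 4 libraries 8 were higher by at least 2-fold, because more members were tested (67 and 40). With library size alone, 4 members were lower by at least 2-fold. Leaving out each library in turn gave 11 to 12 members higher and 15 to 17 lower. Of the members not called, Gata3 reversed to -0.18 (log2) without tumour L4 and R5. Tfap2a reversed to 0.028 with upper-quartile scaling, 0.26 with library size alone and 0.0050 with the letter of the area name as covariate, and ran from -0.12 to 0.12 with 1 library left out. Hoxa9 reversed to 0.19 with library size alone, where it passed (adjusted p = 0.0386), and Irx1, with 1 library left out, ran from -0.011 to 0.26. Pax8, Foxn3 and Irx1 also passed the threshold upward with library size alone, Pax8 and Foxn3 also with upper-quartile scaling, and Pax8 also without tumour L4 and R5 (0.37). Tbx18 (adjusted p = 0.00626), Foxn1 (0.00315), Sox15 (0.00987), Foxf1 (0.0317), Foxp3 (0.0303) and Foxr1 (0.0223) passed edgeR's test when no filter was used. Foxp3 and Foxr1 rested on 11 and 6 tumour counts, and every Foxr1 value lay below the floor of its library. No paired analysis was possible because the groups share only the area name R2. Depth limits members near 0.409 to 0.648 CPM per library.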
